A study of Mus musculus with 4 samples.

Results

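Cdkn1a and 9 further target genes of the tumour suppressor p53 were examined in liver lacking Tm7sf2, a cholesterol synthesis enzyme that also sits in the nuclear envelope. Cdkn1a was selected on its lower level in KO liver on these same arrays. Mdm2, Ccng1, Gadd45a, Btg2, Bax, Trp53inp1, Phlda3, Sesn1 and Sesn2 were taken because they are established p53 targets, also with the KO and WT values known. Their differences are therefore given as a description, with no p-value. All 10 genes were found by name, of 19504 genes named in the table, at 19 of the 45037 probe sets tested, where a probe set is a group of short oligonucleotides that reads 1 stretch of transcript. The material was liver of male mice aged 6 weeks. WT mice were C57Bl/6, and the Tm7sf2-KO line had been backcrossed to that strain. Each genotype was read on 2 arrays. The labels do not say whether the duplicates came from separate animals, so the errors and p-values cover array-to-array spread alone, and that spread may be technical. They also do not say which part of Tm7sf2 was disrupted.

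The p53 protein is kept low by Mdm2, which marks it for degradation, and accumulates after DNA damage and other stresses. It then switches on genes that stop the cell cycle, start cell death, repair DNA or adjust metabolism, and it raises Mdm2 itself, which closes a feedback loop. Cdkn1a encodes p21, an inhibitor of cyclin-dependent kinases and the best-known arrest gene of this set. In liver, p21 restrains hepatocyte division during regeneration. Cdkn1a also answers to signals other than p53, among them growth factor, hormone and nutrient signals.

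The promoter sequences of Cdkn1a are shown because it is the gene of the set with the largest change in size, and because its upstream window holds a match to the paired p53 site. RefSeq lists 2 start sites for the gene on the plus strand of chromosome 17 (GRCm38.p6), 2790 bases apart, and each window runs from 250 bases before to 50 bases after the start. In the upstream window, capitals mark matches to the p53 half-site consensus of 10 bases, together with the partner half-site that lies end to end with the second match. In the downstream window, capitals mark TATAA and GGGCGG.
Cdkn1a upstream start, chr17:29090729-29091028, plus strand: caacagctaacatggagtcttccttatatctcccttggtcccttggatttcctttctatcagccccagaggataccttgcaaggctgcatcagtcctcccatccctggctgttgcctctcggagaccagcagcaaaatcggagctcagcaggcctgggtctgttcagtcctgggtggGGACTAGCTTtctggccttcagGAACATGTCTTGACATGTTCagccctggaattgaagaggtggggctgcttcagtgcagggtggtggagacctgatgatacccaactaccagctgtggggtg
Cdkn1a downstream start, chr17:29093519-29093818, plus strand: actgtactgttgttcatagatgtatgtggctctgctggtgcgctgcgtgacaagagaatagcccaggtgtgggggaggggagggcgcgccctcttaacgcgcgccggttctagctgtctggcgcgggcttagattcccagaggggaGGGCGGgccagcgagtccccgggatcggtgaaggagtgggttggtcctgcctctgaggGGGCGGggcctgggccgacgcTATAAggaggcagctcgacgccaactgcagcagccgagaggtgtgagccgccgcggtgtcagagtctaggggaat
The paired site reads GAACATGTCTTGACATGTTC and begins 51 bases before the upstream start.

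Windows were available for 9 of the 10 members, 11 windows in all, and were searched on both strands. A p53 half-site was present in 6 of the 11, against 8.36% of all 32851 promoter windows in the table. The 6 genes concerned were Cdkn1a, Mdm2, Ccng1, Gadd45a, Bax and Sesn1. Half-sites placed end to end, with at most 1 mismatch over 20 bases outside the fixed core, were found in 0.0548% of all windows (18 windows) and in 1 member, Cdkn1a. The 1 mismatch was allowed after the Cdkn1a sequence had been seen. No overlap occurred between the motifs marked. The downstream Cdkn1a window held 2 copies of GGGCGG, the binding motif of Sp1, and 1 TATAA, the core of the TATA box. GGGCGG occurs in 35.7% of all windows and TATAA in 24.9%. TATAA also stands once in the upstream window, on the opposite strand. Such matches describe the sequence only, and the sources used here do not say which start site the probe sets read.

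Cdkn1a transcripts were lower in KO liver at both of its probe sets. At the brighter one (1424638_at) the WT arrays read 8.66 and 8.55 and the KO arrays 7.36 and 7.34 (log2 expression values). Both KO arrays thus lay more than 1 log2 unit below both WT arrays, and the groups did not overlap. The means were 8.61 ± 0.07 in WT and 7.35 ± 0.01 in KO (SD, n = 2 each). The change, KO minus WT, was -1.26 (SE 0.08, 95% confidence interval -1.44 to -1.08), a 2.4-fold lower level. Of the 45037 probe sets, 9 had a lower change. The dimmer probe set (1421679_a_at), which by its suffix reads several transcripts of the gene, gave 7.37 and 7.35 in WT and 6.89 and 6.96 in KO. The KO arrays were again the lower ones without overlap. The change there was -0.44 (SE 0.08, interval -0.61 to -0.26), 0.82 less than at the brighter probe set. Since whole liver was measured, fewer cells that express a gene and less RNA per cell cannot be told apart.

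A probe set was called when its limma adjusted p was under 0.05 and its change was at least 0.5 in size. Of the 19 member probe sets 1 was called, the brighter of Cdkn1a, against 0.706% of all probe sets. At 5% FDR alone, the same limit on the adjusted p without the size limit, both Cdkn1a probe sets were called and no other member was, against 1.25% of all probe sets. Because the members were chosen with this contrast known, nothing is read from these counts. With any 1 array left out, limma called no probe set of the whole table, although the Cdkn1a change stayed between -1.21 and -1.31. The KO arrays lay below both WT arrays at 6 of 19 member probe sets (18.7% of all probe sets did so) and above both at 4 (22.4% of all).

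**Figure D1:**
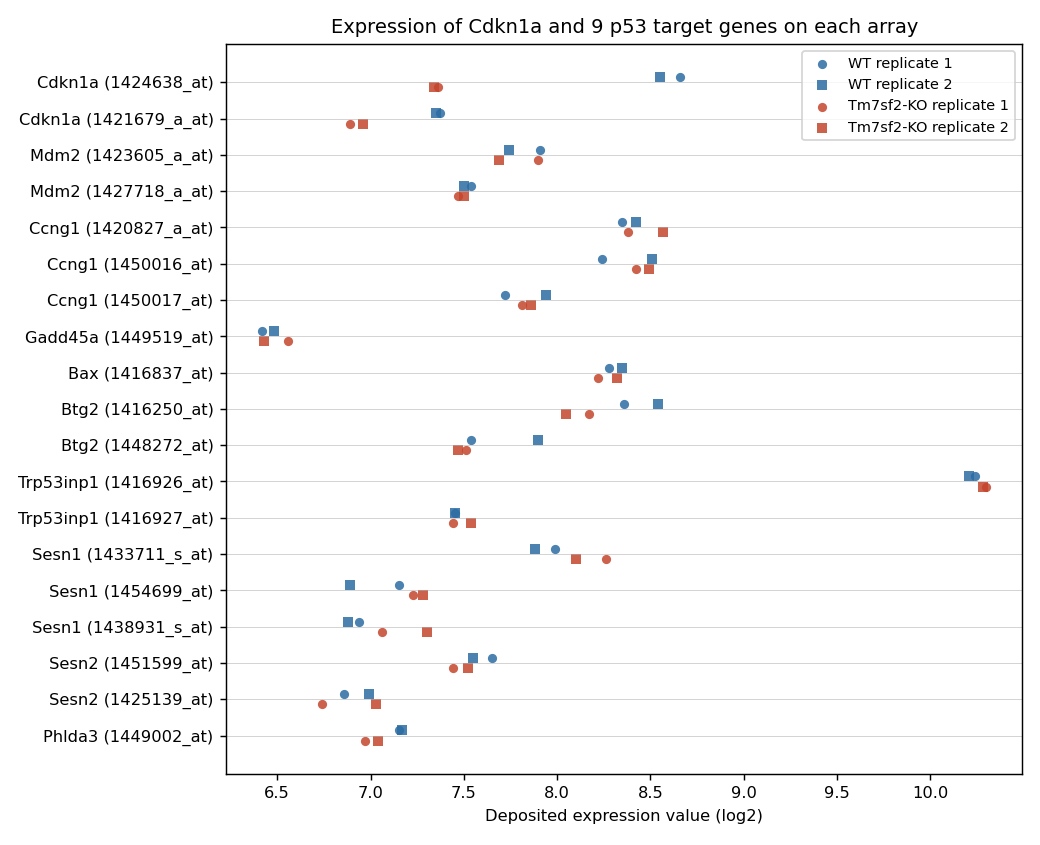
Expression value (log2) of each of the 19 member probe sets on the 2 WT arrays (blue) and the 2 Tm7sf2-KO arrays (red), circles for replicate 1 and squares for replicate 2. At the brighter Cdkn1a probe set the KO arrays read 7.36 and 7.34 against 8.66 and 8.55 in WT, while at most other probe sets the arrays lie close together or overlap.

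The p53 feedback genes overlapped between genotypes at every probe set. Mdm2, the ubiquitin ligase that limits p53, read 7.91 and 7.74 in WT and 7.90 and 7.69 in KO at its brighter probe set. The arrays overlapped, and the change was -0.03 (interval -0.25 to 0.19). Its second probe set gave -0.04 (interval -0.21 to 0.14). Ccng1 encodes cyclin G1, which works with a phosphatase on Mdm2. At its brightest probe set it read 8.35 and 8.42 in WT and 8.38 and 8.57 in KO. The change was 0.09 (interval -0.11 to 0.30), and the other 2 probe sets gave 0.07 and 0.00.

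Among the other arrest genes, Btg2 was lower on both KO arrays at both of its probe sets, and Gadd45a overlapped. Btg2 is an antiproliferative protein that promotes the removal of mRNA tails. It read 8.36 and 8.54 in WT and 8.17 and 8.05 in KO at its brighter probe set, so that both KO arrays lay below both WT arrays. The change was -0.34 (SE 0.09, interval -0.55 to -0.14), the lowest of the 17 probe sets outside Cdkn1a, and it passed neither limit given above. At the other probe set WT read 7.54 and 7.90 and KO 7.51 and 7.47. Again the KO arrays were lower, by a margin of hundredths at the nearest pair, and the change was -0.23 (interval -0.49 to 0.02). Gadd45a, a growth arrest protein that binds PCNA and p21, was the dimmest member. Its single probe set read 6.42 and 6.48 in WT and 6.56 and 6.43 in KO, below the array medians of 6.66 to 6.67. The change was 0.05 (interval -0.14 to 0.24), with overlapping arrays.

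The genes that act in cell death and survival differed by at most 0.15 in the mean. Bax, which opens the outer mitochondrial membrane, read 8.28 and 8.35 in WT and 8.22 and 8.32 in KO, a change of -0.05 (interval -0.23 to 0.14) with overlap. Trp53inp1, a partner of p53 in cell death and autophagy, read 10.24 and 10.21 in WT and 10.30 and 10.28 in KO at its brighter probe set. Both KO arrays were the higher ones, but by hundredths of a log2 unit (change 0.06, interval -0.11 to 0.23). Its dimmer probe set gave 0.04 and overlapped. Phlda3, which competes with the kinase Akt for membrane lipids, read 7.15 and 7.17 in WT and 6.97 and 7.04 in KO. The KO arrays were lower without overlap, and the change of -0.15 had an interval of -0.33 to 0.03.

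The sestrins, which restrain the growth kinase mTORC1 and limit oxidative damage, gave no call. Sesn1 was higher in KO at each of its 3 probe sets, and at each the KO arrays lay above both WT arrays. At the brightest (1433711_s_at) WT read 7.99 and 7.88 and KO 8.26 and 8.10, a change of 0.25 (SE 0.09, interval 0.05 to 0.45). The others gave 0.24 (interval 0.01 to 0.46) and 0.27 (interval 0.05 to 0.49). None was called, the 3 share the same arrays, and the suffix of 2 of them marks probes that can read other transcripts as well. Sesn2, the paralog that also answers to nutrient stress, read 7.65 and 7.55 in WT and 7.44 and 7.52 in KO at its brighter probe set (change -0.12, interval -0.30 to 0.06). Its dimmer probe set gave -0.04 with overlapping arrays. Whether Sesn1 differed from Sesn2 was not tested.

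**Figure D2:**
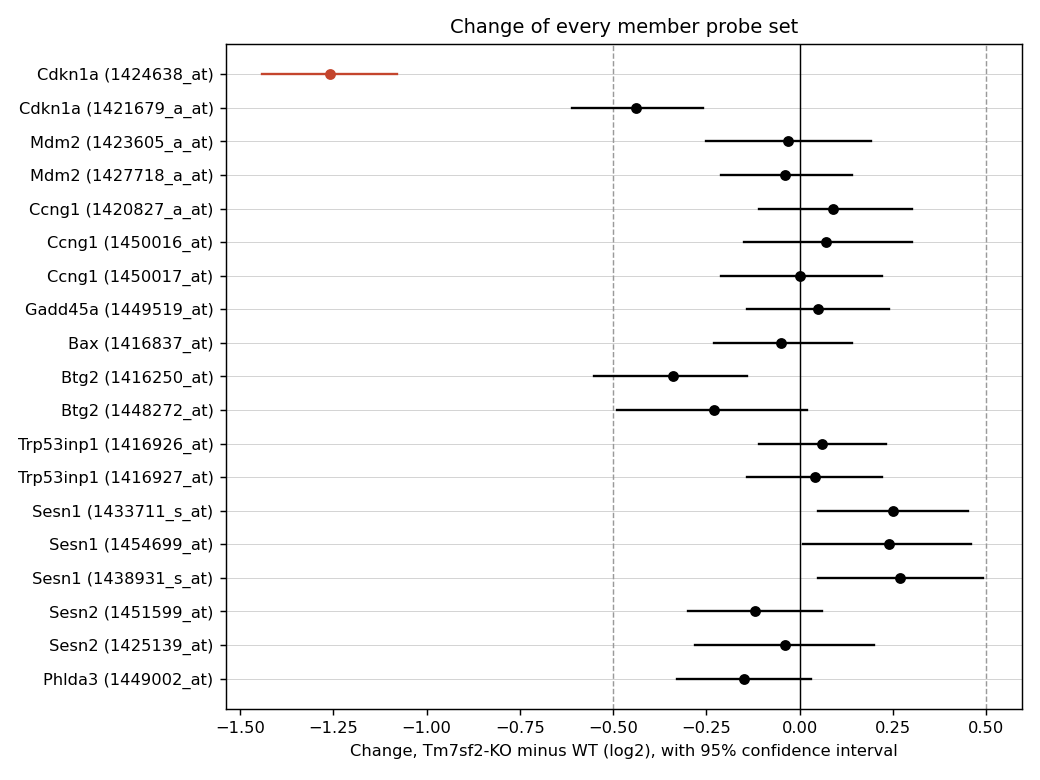
Change of each member probe set, Tm7sf2-KO minus WT (log2), as a point with its 95% confidence interval, and dashed lines at changes of 0.5 in either direction. The red point is the called Cdkn1a probe set at -1.26, the next lowest are the second Cdkn1a probe set at -0.44 and Btg2 at -0.34, and the highest is Sesn1 at 0.27.

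Over the 17 probe sets outside Cdkn1a the changes ran from -0.34 to 0.27. The interval held 0 at 13 of them. It reached a fall of 0.5 at 1 probe set, the brighter of Btg2, and a rise of 0.5 at none. At 7 of the 10 genes every probe set changed by less than 0.2. The median change of the member probe sets was -0.03, against 0.01 over all probe sets. Replicates of the members differed by a median of 0.0911 in WT and 0.0776 in KO.

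**Figure D3:**
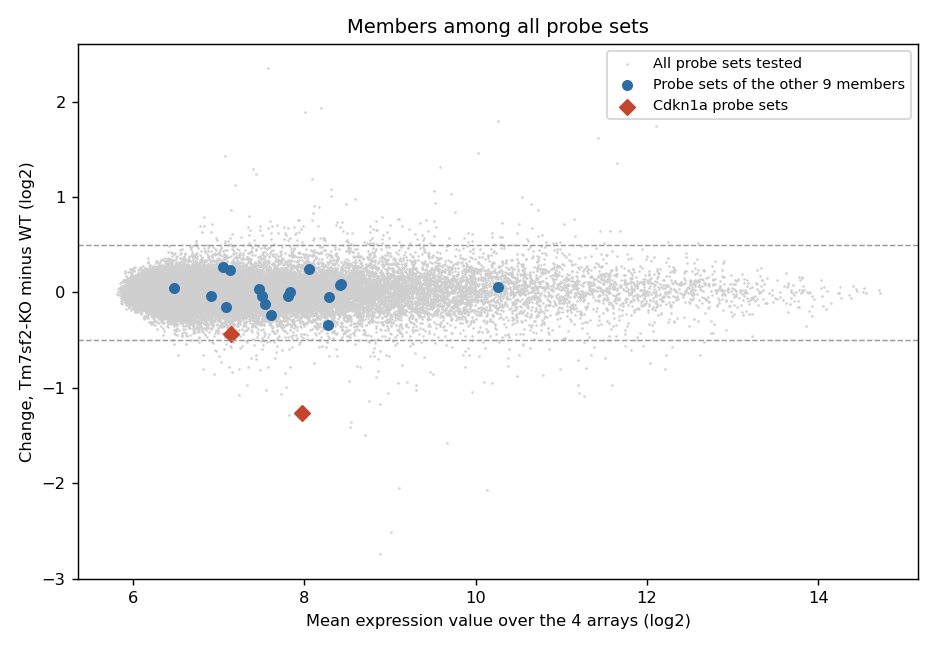
Change, Tm7sf2-KO minus WT (log2), against the mean expression value over the 4 arrays (log2), with every probe set tested in grey, the other 9 members in blue and Cdkn1a as red diamonds. The brighter Cdkn1a probe set, at -1.26, stands below the grey cloud and the blue points lie inside it.

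Tm7sf2 itself, the targeted gene, read 10.26 in WT and 7.51 in KO (means) at 1 probe set and differed by 0.04 at its other. Control transcripts added at hybridization read 0.386 higher in KO, and those added before labelling 0.349 higher. Centring the arrays on them moved the median change of all probe sets to -0.36, took Cdkn1a to -1.62 and changed the sign at 8 of the 19 member probe sets, so every change here is relative to the bulk of probe sets. Those of Sesn1 were among the 8, at -0.12, -0.13 and -0.09 after centring. For Actb, Gapdh and Pcx the excess of the 3′ over the 5′ control signal, a sign of RNA integrity and labelling, was greater in KO (by 0.183, 0.124 and 0.327), and for the transferrin receptor it changed by -0.147. Of 9 hepatocyte markers measured, all read between 12.52 and 14.76, near the top of the scale. Of 49 markers of 8 liver cell types 1 was called (2.04%, against 1.03% of all named genes). It was S100a8, a neutrophil gene (-0.67, adjusted p = 0.00449). The 4 neutrophil markers found averaged 6.88 and 6.96 in WT and 6.72 and 6.72 in KO, with S100a9 at -0.28 (adjusted p = 0.164) and Mpo and Camp at 0.05 and 0.07. Ly6g and Retnlg were not found by name. Of the erythroid list Hba-a1, Hbb-b1 and Ahsp were not found, and the 3 genes measured were not called, with Alas2 at -0.13. Haemoglobin is in the table under other names, which were looked up after the values were seen. Hbb-bt fell by 0.80 on the log2 scale (adjusted p = 0.00191), from 12.62 and 12.59 in WT to 11.77 and 11.85 in KO, and both Hba-a2 probe sets were lower on the KO arrays (-0.46 and -0.42, adjusted p = 0.0288 and 0.0459). Of 7 endothelial markers none was called, and their changes ran from -0.37 to 0.18 with a median of -0.06. The lowest of them, Lyve1, was lower without overlap at both probe sets (-0.37 and -0.36, adjusted p = 0.149 and 0.096). Of 6 stellate markers none was called, with a median change of 0.09. Among them Dcn gave 0.20 (adjusted p = 0.31), and Pdgfrb gave 0.21 and -0.14 (adjusted p = 0.281 and 0.562). The part of these values in the Cdkn1a result was not tested.

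Around p53 the wider pathway was next described through 8 lists of other genes, 111 genes in all, each at its brightest probe set. Of these 5 rose and 1 fell past both thresholds (5.41%), against 1.03% of the 19504 named genes. The rises were Pltp, Dcxr, Lpin1, Bcl6 and Tbx3, and the fall was Ccnb1. This split depended on the scaling. After centring on the added control transcripts 1 gene rose and 17 fell, Bcl6 kept its rise (0.72) and Ccnb1 its fall (-0.97), and Pltp, Dcxr, Lpin1 and Tbx3 lay between 0.21 and 0.32 and were not called. The 111 genes had a median change of 0.03, against 0.01 over all named genes. At 5% FDR alone 11 passed (9.91%, against 1.75%). The lists of p53 with its relatives and regulators and of its targets held 59 genes. Of these 3 rose and none fell past both thresholds in limma (5.08%). The lists were drawn up with earlier results of these data known, so nothing is read from these shares.

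Trp53, its relatives Trp63 and Trp73 and the genes that control p53 gave no call. Of these 19 genes, none passed the adjusted p limit in limma, and 1 reached an unadjusted p below 0.05. Their median change was 0.04. Trp53, which encodes p53 itself, read 7.50 and 7.35 in WT and 7.24 and 7.40 in KO. The arrays overlapped, and the change was -0.11 (interval -0.31 to 0.10, adjusted p = 0.708). Its dimmer probe sets gave -0.10 and 0.02. Mdm4, the partner of Mdm2, gave 0.04 (adjusted p = 0.883), and 0.14 and 0.11 at its dimmer probe sets. The smallest adjusted p-values belonged to the checkpoint kinase Chek1 (-0.24, adjusted p = 0.247) and the ribosomal protein Rpl5, which binds Mdm2 (0.18, adjusted p = 0.451). The dimmer probe sets of Chek1 gave -0.21 and, with overlapping arrays, 0.10. These are mRNA levels, and p53 is controlled largely as a protein.

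Other p53 targets were divided by role. Of 15 genes listed under arrest and repair none passed both thresholds (2 had an unadjusted p under 0.05, median change -0.04). The nearest was Ccnd1, the gene for cyclin D1 (-0.46, adjusted p = 0.0493). It is itself a cyclin that p21 can block, not an arrest gene, and is counted again below. Its other probe sets gave -0.39 (adjusted p = 0.0503) and -0.17 with overlapping arrays (adjusted p = 0.529). Next came the repair nuclease Ercc5 (0.22, adjusted p = 0.381). Of 13 cell death genes none passed (2 had an unadjusted p under 0.05, median change 0.05), with Siva1 at 0.25 (adjusted p = 0.302) and the receptor Eda2r at -0.22 (adjusted p = 0.334). Siva1 is a pro-apoptotic protein, and its dimmer probe sets gave 0.14, 0.02 and 0.07.

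Of 12 targets in metabolism and redox control, 3 rose and none fell past both thresholds, with a list median of 0.11. Over all named genes 1.03% passed them. In this list 5 had an unadjusted p under 0.05. As the list was chosen with results known, nothing is read from the counts. The phospholipid transfer protein Pltp read 9.08 and 9.30 in WT and 9.89 and 9.87 in KO. Both KO arrays lay well above WT, by 0.69 in the mean (SE 0.09, adjusted p = 0.00918), and the second probe set gave 0.57 (adjusted p = 0.00962). Dcxr, a sugar reductase, read 9.92 and 10.07 in WT and 10.56 and 10.59 in KO, a rise of 0.58 (adjusted p = 0.014). The phosphatidate phosphatase Lpin1 read 9.87 and 9.92 in WT and 10.49 and 10.46 in KO, also a rise of 0.58 (adjusted p = 0.00924). Its other probe set gave 0.24 (adjusted p = 0.243), and Lpin1 was not called on the mean of its probe sets (0.41). Pank1, which makes coenzyme A, was below the limits at its brightest probe set (0.46, adjusted p = 0.073) but called at another (0.52, adjusted p = 0.0143). It was named after its values were seen.

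**Figure D4:**
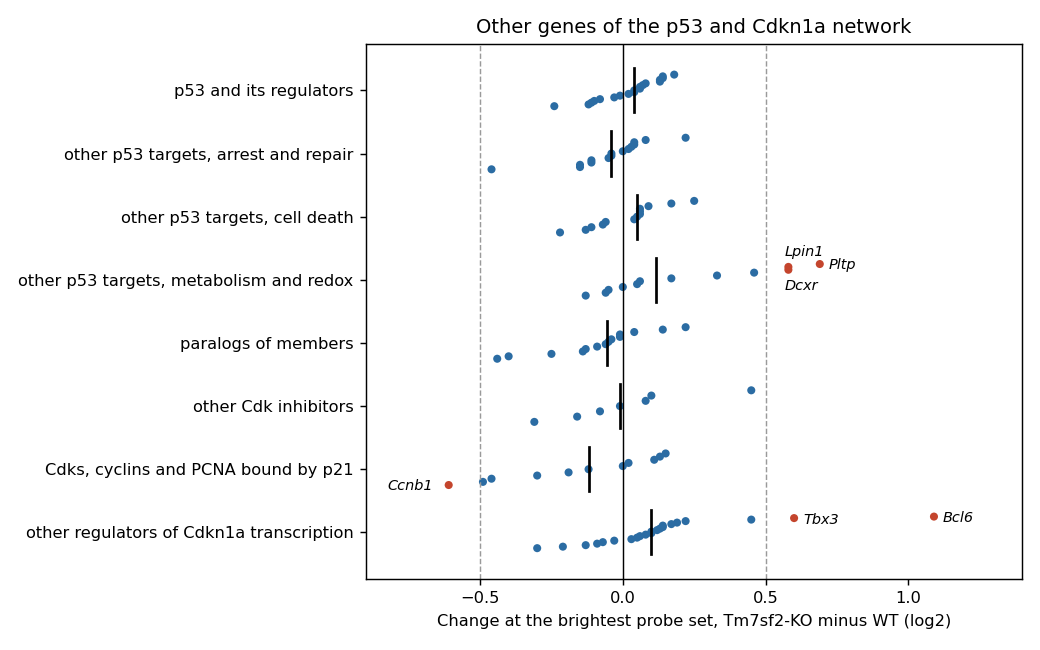
Change of each listed gene at its brightest probe set, Tm7sf2-KO minus WT (log2), in 8 lists, with red points and names for genes past both thresholds, blue points for the rest, a black bar at each list's median and dashed lines at 0.5 in either direction. Trp53, its relatives and regulators and the listed arrest, repair and death targets lie between -0.46 (Ccnd1, a cyclin) and 0.25 (Siva1), most near 0. The named points are Pltp, Dcxr, Lpin1, Ccnb1, Bcl6 and Tbx3.

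Relatives of the members showed no call past both thresholds in limma among 14 paralogs (4 had an unadjusted p under 0.05). Trp53inp2, the autophagy factor related to Trp53inp1, read 11.08 and 11.07 in WT and 10.64 and 10.64 in KO (change -0.44, adjusted p = 0.0307). Gadd45g, which belongs to the same stress-response family as Gadd45a, gave -0.40 (adjusted p = 0.0686). Whether either differed from its paralog was not tested.

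Other Cdk inhibitors were read beside Cdkn1a. Of 7, none passed both thresholds in limma and 2 had an unadjusted p under 0.05. Cdkn1b, which encodes p27, the closest relative of p21 in liver cell cycle control, read 6.89 and 6.99 in WT and 7.45 and 7.32 in KO at its brighter probe set. Both KO arrays were higher, by 0.45 in the mean (SE 0.09, adjusted p = 0.0427), which is under the size limit. The dimmer probe set gave -0.06 (adjusted p = 0.852). Cdkn3, a phosphatase of Cdks, gave -0.31 (adjusted p = 0.124).

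Of 11 Cdks and cyclins that p21 can bind or block, 1 fell and none rose past both thresholds, with a median change of -0.12. Over all named genes 1.03% passed them. In this list 4 had an unadjusted p under 0.05. Ccnb1, the mitotic cyclin B1, read 7.24 and 7.29 in WT and 6.66 and 6.66 in KO, a fall of 0.61 on the log2 scale (SE 0.08, adjusted p = 0.00696). The S-phase cyclin Ccna2, named after its values were seen, was lower at both probe sets (-0.49 and -0.50, each adjusted p = 0.0248). Together with Ccnd1, which passed at 1 of its 3 probe sets, 3 genes of this list were lower at 5% FDR alone. Over all named genes 1.75% passed that limit in either direction. Pcna, the replication clamp that p21 binds, was not found by name.

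Of 22 further factors known to act on Cdkn1a transcription, 2 rose and none fell past both thresholds, and the median change was 0.10. Over all named genes 1.03% passed them. In this list 6 had an unadjusted p under 0.05. Beside the genes below, they were Stat3 (-0.30, adjusted p = 0.175), Stat5a (-0.21, adjusted p = 0.302) and Nr1d1 (0.22, adjusted p = 0.274), named after their values were seen. Bcl6, a repressor that acts on Cdkn1a in lymphoid cells, read 7.75 and 7.79 in WT and 8.85 and 8.86 in KO, a rise of 1.09 (SE 0.08, adjusted p = 0.000309). Its other probe set gave 0.15 (adjusted p = 0.757). Tbx3, a T-box repressor and pericentral hepatocyte marker, read 7.46 and 7.50 in WT and 8.02 and 8.14 in KO, a rise of 0.60 (adjusted p = 0.00938). A second probe set gave 0.51 (adjusted p = 0.0285) and the dimmest -0.02, and Tbx3 was not called on the mean of its probe sets (0.36). Foxo3, an activator of Cdkn1a named after its values were seen, gave 0.45 (adjusted p = 0.0289) at its brightest probe set and -0.06 to 0.08 at the other 3. Their part in the Cdkn1a level was not tested.

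Genes beside Cdkn1a on chromosome 17 were read to see whether the lower level extended along the chromosome. The 3 nearest measured protein-coding genes on either side in RefSeq were Kctd20, Stk38 and Srsf3, then Rab44, Cpne5 and Ppil1. Each was read at its brightest probe set, and none passed the adjusted p limit in limma there. Srsf3, a splicing factor and the nearest measured neighbour upstream, read 7.64 and 7.65 in WT and 7.26 and 7.37 in KO (change -0.33, adjusted p = 0.105). Dimmer probe sets of Srsf3 were lower as well (-0.425 and -0.256, adjusted p = 0.0816 and 0.277). At its brightest probe set Ppil1 gave -0.25 (adjusted p = 0.235), and the remaining 4 genes lay between -0.10 and 0.10 at theirs. Dimmer probe sets of Kctd20 went the other way (0.014 and 0.226, adjusted p = 0.969 and 0.328). Whether Srsf3 shared the fall of Cdkn1a was not tested.

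The 5 named genes whose pattern over the 4 arrays was most like that of the brighter Cdkn1a probe set were Cyp2c55, Saa1, Gm37416, Csf2rb2 and Serpina7. After each was centred on its own mean, their root mean square differences from Cdkn1a were 0.0826 to 0.105 log2 units. Over 4 arrays in 2 groups this likeness amounts to a change of like size, here from -1.41 for Cyp2c55, a cytochrome P450, to -1.07 for Csf2rb2 and Serpina7. Saa1, the acute phase protein serum amyloid A, gave -1.08. The probe sets of Gm37416 and Csf2rb2 carry the suffix of probes that can read other transcripts as well. Csf2rb2 has 2 probe sets, and only the brighter was compared.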

How the data were processed

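RNA from the livers of WT and Tm7sf2-KO mice was hybridised to 1-colour Affymetrix MOE430 v2 arrays, 2 per genotype. The deposited expression values are log2 values per probe set, which the authors normalized by quantiles. Of tools, affy and limma are named in the submitters' processing notes. No method of background correction or probe summarisation is named in the sources used here. A second deposited table gave gene names and chromosomes, and its log2 ratio and p-value columns, the authors' own comparison, were not used.

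After 64 control probe sets were removed, 45037 were fitted with limma 3.58.1 in R 4.3.3 (lmFit, eBayes, two-sided, 2 groups, no covariate) with Benjamini-Hochberg adjustment across all of them. The thresholds, an adjusted p under 0.05 and an absolute log2 change of at least 0.5, were those of the study's methods. The fit was run on simulated data with independent arrays and variances drawn from its own model. That run cannot show how the fit behaves under shared array effects or a scaling shift. Replicates correlated at 0.9942 (WT) and 0.9938 (KO) across probe sets. Same-numbered arrays did not deviate together (r = -0.037), and precision is limited by having 4 arrays.

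The members and gene lists were chosen with earlier results of these data known. Members are given at every probe set, with no p-value. A listed gene was represented by its probe set of highest average level. Named from a list were up to 4 genes past both thresholds, or otherwise the 2 with the smallest adjusted p. Promoter windows of 300 bases came from RefSeq (GRCm38.p6). Alternatives were the replicate number as a block, a second quantile normalization, centring on added control transcripts, a variance trend, bright probe sets only, 5% FDR (false discovery rate) alone, the mean of a gene's probe sets, and leaving out each array.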

Additional observations from a re-analysis of the deposited data

How the results depend on the processing

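The call of the brighter Cdkn1a probe set was kept with the replicate number as a block (1 member probe set and 6 network genes called), after a second quantile normalization, with a variance trend and with bright probe sets only, which left out Gadd45a. Centring on the added control transcripts gave 5 member probe sets and 18 network genes past both thresholds and a Cdkn1a change of -1.62. The 5 were all lower. Of the 18 network genes 1 was higher and 17 were lower, against 5 and 1 on the deposited scale, and over all probe sets 26 were higher and 5513 lower, against 171 and 147. This centring shifts every probe set downwards by construction. At 5% FDR alone the counts were 2 and 11. On the mean of a gene's probe sets 1 member and 4 network genes were called, Lpin1 and Tbx3 being lost. With 1 array left out the counts ranged from 0 to 0 for both, with 1 residual degree of freedom and no probe set of the table called, while 3326 to 4217 probe sets and 2 to 5 member probe sets had an unadjusted limma p under 0.05. The lone array of a genotype was then assumed to vary like the pair. Signs of members changed at 1 to 3 probe sets there, and the brighter Cdkn1a change ran from -1.31 to -1.21. Depth is unknown for arrays, and 2 arrays per genotype limit what these data can show.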
